A study of Mus musculus with 22 samples.

Results

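The vascular endothelial growth factor (VEGF) ligands and their receptors were described in ischemic mouse muscle: the ligands Vegfa, Vegfb, Vegfc, Vegfd and Pgf, the receptors Kdr, Flt1 and Flt4, and the co-receptors Nrp1 and Nrp2. All array probes whose platform symbol was 1 of these 10 genes were taken, which gave 22 of 38563 probes and 10 of 18524 named genes. The 22 animals were C57BL/6N males, 8 to 12 weeks old, and the tissue was the gastrocnemius, a calf muscle. In all of them the femoral artery had been removed to make the hindlimb ischemic. On day 5 after surgery every mouse was injected intraperitoneally with 12 mg/kg of an LNA oligonucleotide, a short strand with locked nucleotides that pair tightly with RNA. In 11 mice this was ANTI-210, directed against the hypoxia-induced microRNA miR-210, and in 11 mice it was SCR, a scrambled control sequence. The titles call all the animals non-diabetic. Muscles were taken on day 7, and 200 ng of RNA from each was put on its own Illumina MouseWG-6 v2 array. No muscle without ischemia and no mouse without an oligonucleotide was analysed here, so every value below belongs to an ischemic, injected muscle.

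VEGF ligands are secreted proteins that drive the growth and the leakiness of vessels. Vegfa acts through the tyrosine kinase receptor Kdr (VEGFR2), which carries most of its growth signal in endothelial cells, and binds more tightly to Flt1 (VEGFR1), which also exists as a soluble decoy. Among the tyrosine kinase receptors Vegfb and Pgf bind Flt1 only. Vegfc and Vegfd act chiefly on Flt4 (VEGFR3) and guide lymphatic growth, and the neuropilins Nrp1 and Nrp2 hold ligands for the receptors. In skeletal muscle the fibres themselves are a main source of Vegfa and Vegfb, while the receptors are made chiefly by endothelial cells. Hypoxia raises Vegfa and miR-210 through the same hypoxia-inducible transcription factors.

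The target of ANTI-210 is shown first, because the oligonucleotide is defined by it. The mature strand lies on the minus strand of GRCm38.p6 at chr7:141221407-141221428 in RefSeq's table, and capitals mark its seed, bases 2 to 8.
mmu-miR-210-3p: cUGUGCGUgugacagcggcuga

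The values were log2 intensities, and each probe has its own brightness, so levels were not compared between genes. A probe with a mean under 6 over all mice was called near the floor of the array, where 62.6% of all probes lie and where changes in RNA are compressed. By the brightest probe of each gene, 6 members were above it, with means over 22 mice of 11.39 for Vegfa, 12.40 for Vegfb, 7.29 for Vegfc, 8.29 for Vegfd, 10.72 for Flt1 and 11.56 for Nrp1. The other 4 were near the floor: Pgf at 5.79, Kdr at 4.86, Flt4 at 5.09 and Nrp2 at 5.58. Of the 22 probes 13 were near the floor. Kdr, a defining gene of endothelial cells, was thus barely measured by either of its probes, while other endothelial genes such as Emcn (10.41) and Esam (11.30) were bright.

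The muscles differed in the RNA of mature fibre genes, widely for some of these genes and little for others. For each mouse a damage index was computed as minus the mean, over 33 genes of mature muscle fibres, of the log2 value relative to that gene's mean over all mice, so that 1 unit stands for fibre markers 1 log2 unit lower on average. None of the VEGF genes is in it. Its 33 genes did not share in it equally: 20 correlated with the index below r = -0.9 and 2 above 0. Fbp2 and Slc2a4 ranged over 3.43 and 3.29 log2 units between mice, but Tnnc2 and Mylpf over 0.24 and 0.22. A high index therefore does not mean that all mature fibre RNA was lower. The index ran from -0.28 in SCR replicate 1 to 0.81 in SCR replicate 6, with a median of -0.17. It formed a continuum with a sparse upper tail, in which the highest 5 mice were SCR replicate 6 (0.81), ANTI-210 replicate 11 (0.70), SCR replicate 7 (0.59), ANTI-210 replicate 3 (0.35) and SCR replicate 8 (0.18). Macrophage and regeneration genes moved with it: over the 22 mice the index correlated at r = 0.884 with the mean of 19 macrophage genes and at r = 0.873 with that of 12 regenerating fibre genes. These are descriptions of the same arrays, and in such bulk RNA fewer cells of a type and less RNA per cell cannot be told apart. The mean index was 0.01 ± 0.28 in ANTI-210 and -0.01 ± 0.38 in SCR (SD, n = 11 each), a difference of 0.03 (two-sided permutation test with 100000 resamples, p = 0.86). The mice numbered 1 to 3 in both groups stood apart from those numbered 4 to 11 on the second principal component of all arrays. The labels name no batch, and the group difference of the index was 0.34 among the former (exact permutation p = 0.1, the smallest that 3 against 3 allows) and -0.09 among the latter (exact permutation p = 0.651).

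Most of the VEGF genes varied with damage. At equal oligonucleotide, 3 members were lower in more damaged muscle (Vegfa, Vegfb and Flt1), 4 were higher (Vegfc, Pgf, Nrp1 and Nrp2), and Vegfd, Kdr and Flt4 did not pass the test. The slopes are changes in log2 intensity per unit of index, from limma fitted to all probes with the group as a covariate, and a slope was called at an adjusted p under 0.05 (Benjamini-Hochberg over all 38563 probes). With this rule 44.1% of all named genes were called, 24.0% as higher and 20.1% as lower with damage, so a member that is called is not set apart by that alone. The median slope over all genes was -0.01 and the median size 0.21, against 2.12 for Vegfa.

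**Figure D1:**
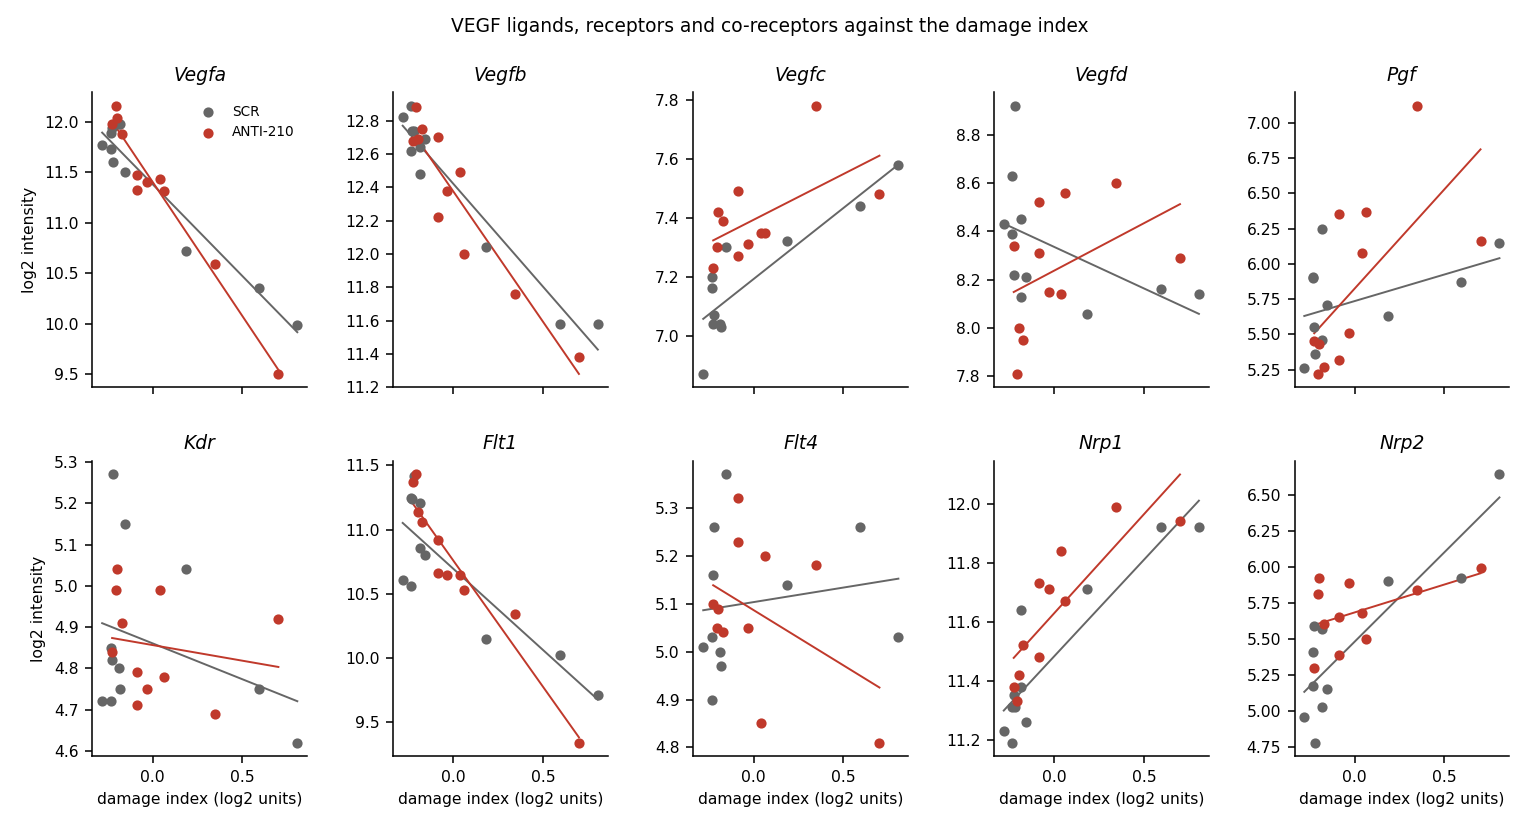
Log2 intensity of the brightest probe of each gene (y axis, a separate range in each panel) against the damage index of the muscle in log2 units (x axis). Each point is 1 mouse, grey for SCR and red for ANTI-210, and each line is the least-squares fit within 1 group; Vegfa, Vegfb and Flt1 descend from left to right, whereas Nrp1, Vegfc and Nrp2 ascend.

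Among the ligands, Vegfa spanned the widest range. In SCR it ran from 9.99 (replicate 6) through a median of 11.73 to 11.98, and in ANTI-210 from 9.50 (replicate 11) through 11.43 to 12.16. The lowest 5 values, 9.50, 9.99, 10.35, 10.59 and 10.72, were those of the 5 mice with the highest damage index, and they came from both groups. The slope was -2.12 (SE 0.14, limma adjusted p = 1.02e-10), which over the whole range of the index, 1.09 units, amounts to a 4.95-fold fall. The folds over the range, here and below, are of the fitted line. The measured Vegfa difference, mouse of highest minus mouse of lowest index, was -1.78 log2 units. The second Vegfa probe, on a dimmer scale from 7.29 to 9.63, gave a slope of -2.24 (SE 0.09, adjusted p = 5.48e-14), and the third lay at the floor between 4.43 and 4.59. The correlation with the index was r = -0.956 and rho = -0.816 over 22 mice (permutation p = 1e-05, the smallest that 100000 resamples can give, and 2e-05). It was -0.927 without the 2 mice farthest from the median index, and -0.744 without the 5 highest.

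Vegfb, the partner of Flt1 best known from heart and oxidative muscle, behaved alike on a smaller scale. It ran from 11.58 to 12.89 in SCR (median 12.64) and from 11.38 to 12.88 in ANTI-210 (median 12.49). The same 5 mice held low values, from 11.38 in ANTI-210 replicate 11 to 12.04 in SCR replicate 8, and ANTI-210 replicate 2 (12.00) lay among them. The slope was -1.35 (SE 0.10, limma adjusted p = 7.04e-10), a 2.78-fold fall over the range of the index. The correlation with the index was r = -0.944 and rho = -0.819 (permutation p = 1e-05 and 2e-05), -0.927 without the 2 mice farthest from the median and -0.783 without the 5 highest.

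The lymphatic ligands parted. Vegfc rose with damage by 0.42 per unit (SE 0.08, limma adjusted p = 1.41e-04), a fitted 1.37-fold rise over the range of the index. The measured step was larger: 6.87 in SCR replicate 1, of the lowest index, and 7.58 in SCR replicate 6, of the highest, differed by 0.71. Its highest value was 7.78, in ANTI-210 replicate 3. The correlation with the index was r = 0.676 and rho = 0.778 (permutation p = 4.6e-04 and 3e-05) and 0.646 without the 2 mice farthest from the median. Vegfd, which binds the same receptor, ran from 7.81 to 8.92 with a slope of -0.08 (95% interval -0.43 to 0.27, limma adjusted p = 0.787).

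Pgf, the placental growth factor, had a slope of 0.75 (SE 0.28, limma adjusted p = 0.0373) near the floor. It ran from 5.26 to 6.25 in SCR and from 5.22 to 7.12 in ANTI-210, and the value of 7.12 was that of ANTI-210 replicate 3 alone. Its correlation with the index was r = 0.510 and rho = 0.503 (permutation p = 0.0167 and 0.0191). The call was the least stable of the 7: it was lost with cyclic loess (slope 0.86, adjusted p = 0.0549), with array weights (0.66, adjusted p = 0.055) and on leaving out any of 8 single mice. The slope itself kept its direction and ran from 0.57 to 0.86 on leaving out each mouse in turn.

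Of the receptors, Flt1 fell. Its values ran from 9.71 to 11.42 in SCR (median 10.80) and from 9.34 to 11.43 in ANTI-210 (median 10.66), and again the lowest 5 were those of the 5 mice with the highest index. The slope was -1.52 (SE 0.18, limma adjusted p = 2.88e-07), a fitted 3.14-fold fall over the range. The measured difference, mouse of highest minus mouse of lowest index, was -0.90 log2 units. The second, near-floor probe gave a slope of -0.50 (SE 0.13, limma adjusted p = 0.0038). The correlation with the index was r = -0.881 and rho = -0.712 (permutation p = 1e-05 and 3e-04), -0.777 without the 2 mice farthest from the median and -0.544 without the 5 highest. SCR replicates 1 and 2 (10.61 and 10.56) lay under most other mice of low index, as the plot against damage shows. Kdr gave slopes of -0.14 (95% interval -0.36 to 0.08) and -0.05 (-0.19 to 0.10) with its 2 probes, and the 3 Flt4 probes gave -0.04, 0.05 and 0.02. All 5 of these probes were near the floor, where changes are compressed, so they do not show that these receptors stayed level.

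Both co-receptors rose. Nrp1, a bright gene, ran from 11.19 to 11.92 in SCR (median 11.35) and from 11.33 to 11.99 in ANTI-210 (median 11.67), and the mice of the upper tail of damage lay between 11.71 and 11.99. The slope was 0.66 (SE 0.08, limma adjusted p = 8.26e-07), a 1.65-fold rise over the range, and the second probe gave 0.60 (SE 0.08, adjusted p = 1.55e-06). The third probe gave 0.34 (SE 0.19, adjusted p = 0.195). The correlation of the brightest probe with the index was r = 0.838 and rho = 0.896 (permutation p = 1e-05 for each), and it was 0.839 without the 2 mice farthest from the median and 0.834 without the 5 highest.

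Nrp2 lay near the floor with all of its 5 probes. The brightest ran from 4.78 to 6.64 in SCR and from 5.30 to 5.99 in ANTI-210, with a slope of 0.93 (SE 0.18, limma adjusted p = 1.86e-04), and the third brightest gave 0.42 (SE 0.10, adjusted p = 0.00118). The remaining probes gave -0.24, -0.25 and -0.04 and did not pass. The correlation with the index was r = 0.733 and rho = 0.696 (permutation p = 5e-05 and 4.5e-04), 0.565 without the 2 mice farthest from the median and 0.416 without the 5 highest (permutation p = 0.0949), so the relation was not resolved outside the upper tail.

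The promoters of the genes that fell or rose together and were above the floor are shown so that they can be read side by side. Each is the 250 bases before a start site listed by RefSeq on GRCm38.p6, given in the sense of the gene. For the genes that fell these are Vegfa (the upstream of 2 listed starts, minus strand, chr17:46032378-46032627), Vegfb (minus strand, chr19:6987652-6987901) and Flt1 (minus strand, chr5:147726012-147726261). For the genes that rose they are Vegfc (plus strand, chr8:54077282-54077531) and Nrp1 (plus strand, chr8:128358823-128359072). The Flt1 and Nrp1 windows lie inside the annotated genes (chr5:147561604-147726438 and chr8:128358591-128505476). For those 2 genes the bases shown are thus not upstream of the whole gene. Capitals mark, on either strand, the hypoxia-inducible factor cores ACGTG and GCGTG, the nuclear receptor hexamer AGGTCA, the MyoD-type E-box CAGCTG, the Sp1 box GGGCGG and the TATA box TATAAA. In Vegfb a GCGTG on the opposite strand overlaps an AGGTCA, and Sp1 boxes adjoin each other.
Vegfa promoter: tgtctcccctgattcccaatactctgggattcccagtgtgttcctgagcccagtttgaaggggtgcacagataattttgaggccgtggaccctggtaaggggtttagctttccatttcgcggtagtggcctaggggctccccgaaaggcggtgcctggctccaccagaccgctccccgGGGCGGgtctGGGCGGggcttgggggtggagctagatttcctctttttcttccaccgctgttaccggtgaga
Vegfb promoter: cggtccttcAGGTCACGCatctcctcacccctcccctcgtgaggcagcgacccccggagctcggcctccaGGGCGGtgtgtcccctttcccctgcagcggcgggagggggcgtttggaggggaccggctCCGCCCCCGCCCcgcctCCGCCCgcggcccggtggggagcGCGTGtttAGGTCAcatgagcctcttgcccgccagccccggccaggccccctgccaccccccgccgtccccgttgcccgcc
Flt1 promoter: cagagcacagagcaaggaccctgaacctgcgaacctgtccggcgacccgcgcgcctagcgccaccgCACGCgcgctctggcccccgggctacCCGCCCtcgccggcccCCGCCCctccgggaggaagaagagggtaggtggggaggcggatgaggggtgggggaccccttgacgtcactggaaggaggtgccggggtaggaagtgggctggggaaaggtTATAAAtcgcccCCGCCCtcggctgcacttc
Vegfc promoter: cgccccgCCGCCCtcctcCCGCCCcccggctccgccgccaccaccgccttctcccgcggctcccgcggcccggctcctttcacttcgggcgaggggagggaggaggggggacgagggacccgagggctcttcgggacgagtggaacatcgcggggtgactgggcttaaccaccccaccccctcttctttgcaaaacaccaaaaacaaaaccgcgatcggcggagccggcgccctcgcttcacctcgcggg
Nrp1 promoter: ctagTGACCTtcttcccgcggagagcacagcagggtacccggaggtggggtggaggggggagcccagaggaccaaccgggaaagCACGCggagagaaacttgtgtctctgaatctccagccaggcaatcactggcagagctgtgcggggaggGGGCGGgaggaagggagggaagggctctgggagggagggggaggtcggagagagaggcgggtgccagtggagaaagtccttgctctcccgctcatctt

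Sp1 boxes were the motif most shared: they occurred in 10 of the 12 promoters listed for the 10 genes, including all 5 shown, against 32.7% of 32851 mouse promoters of the same length. GCGTG occurred in 7 of the 12, among those shown in Vegfb, Flt1 and Nrp1, against 28.2%. ACGTG occurred in 1, at the downstream start of Vegfa, against 16.6%. The window of that Vegfa start, chr17:46025164-46025413, also holds 1 GCGTG, and it lies inside the gene (chr17:46016993-46032377). The windows of Flt1, Nrp1, Kdr and both Pgf starts also lie inside their annotated genes. AGGTCA occurred in 2, with 2 copies in Vegfb and 1 in Nrp1, against 14.0%. A TATA box began at position -31 from the listed start of Flt1 and at -73 from that of Vegfd (12.4% of promoters). CAGCTG occurred only at the downstream start of Pgf (13.0%). No motif was held by the 3 falling genes and missing from the 2 rising ones. The promoters shown are rich in G and C, from 59.2% in Vegfa to 76.4% in Vegfb, with a median of 52.4% over all promoters, and such matches are letters in a window and not measured binding.

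The oligonucleotide comparison asked whether blocking miR-210 changed these genes. By the brightest probes 1 of 10 members passed an unadjusted p under 0.05, the gene-level threshold of the study's methods, and it was Vegfc, higher in ANTI-210. Over all named genes 3.47% passed that threshold, and no member passed after adjustment over all probes (limma, adjusted p = 1 for all 10). Vegfa differed by -0.03 (95% interval -0.66 to 0.60), Vegfb by -0.08 (-0.49 to 0.33) and Flt1 by 0.02 (-0.47 to 0.51). The spread between muscles made these intervals wide. Vegfd differed by -0.10, Pgf by 0.11, Kdr by -0.01, Flt4 by -0.02, Nrp1 by 0.16 and Nrp2 by 0.22, each with an interval that held 0.

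**Figure D2:**
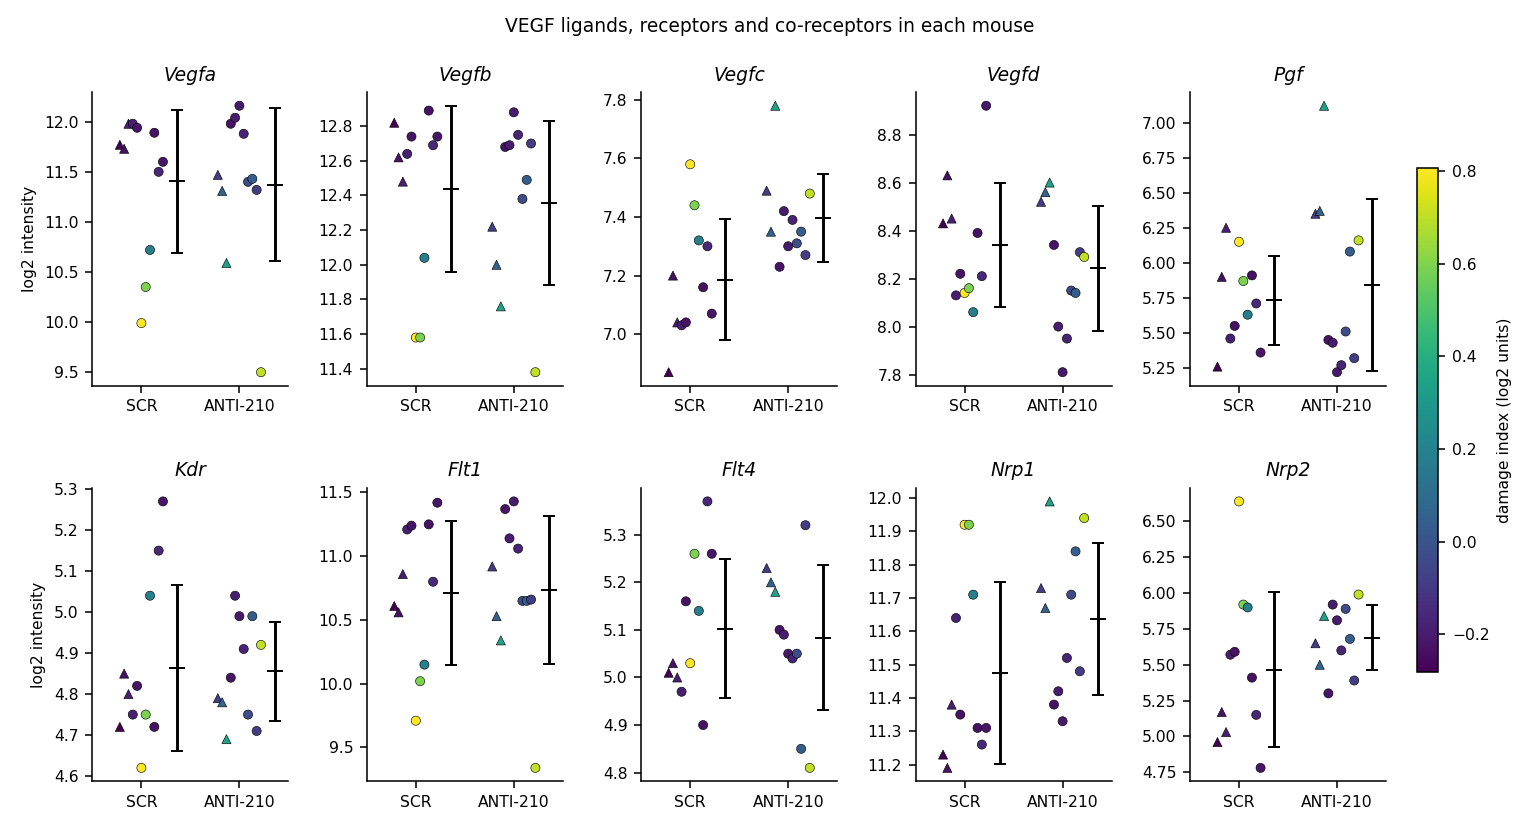
Log2 intensity of the brightest probe of each gene (y axis, a separate range in each panel) in each SCR and ANTI-210 mouse, with the mean and SD of 11 mice beside the points. Colour gives the damage index, triangles are mice numbered 1 to 3 and circles mice numbered 4 to 11; in Vegfa, Vegfb and Flt1 the low points of both groups are the damaged muscles, and in Vegfc all 11 ANTI-210 points lie above the SCR median of 7.16.

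Vegfc averaged 7.40 ± 0.15 in ANTI-210 and 7.19 ± 0.21 in SCR (SD, n = 11 each). The ANTI-210 mice ran from 7.23 through a median of 7.35 to 7.78, and the SCR mice from 6.87 through 7.16 to 7.58. All 11 ANTI-210 mice lay above the SCR median, but the groups overlapped, with 1 ANTI-210 mouse above the highest SCR mouse. The difference was 0.21 (SE 0.08, limma unadjusted p = 0.0109, adjusted p = 1; permutation p = 0.0131). It was 0.50 among the mice numbered 1 to 3 (7.54 against 7.04, exact permutation p = 0.1) and 0.10 among those numbered 4 to 11 (7.34 against 7.24, exact permutation p = 0.215), so the unadjusted call was not met in the larger set alone.

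The sets of replicate numbers also differed for other members, and unlike that of Vegfc some of these differences turned in sign. Among numbers 1 to 3 the difference of means, ANTI-210 minus SCR, was -0.70 for Vegfa, -0.65 for Vegfb, 0.81 for Pgf, 0.53 for Nrp1 and 0.61 for Nrp2. Among numbers 4 to 11 the differences were 0.22, 0.13, -0.15, 0.03 and 0.08 in the same order. The damage index moved with these values, with a group difference of 0.34 in the former set and -0.09 in the latter, and the part of either the index or the set in them was not tested. Flt4 was 0.19 higher in ANTI-210 in the former and 0.10 lower in the latter (5.20 against 5.01, and 5.04 against 5.14). These 6 differences in the set of 3 against 3 had an exact permutation p of 0.1, the smallest that set allows. In limma fitted to those 6 mice alone, an alternative added after seeing the data, the adjusted p was 0.0368 for Vegfb, 0.0290 for Nrp1, 0.0241 for Nrp2 and 0.0404 for Flt4, and above 0.05 for the other 6 members. In that fit 17.3% of all named genes passed the adjusted threshold and 34.7% the unadjusted one. These values are of the brightest probes, which for Flt4 and Nrp2 lay near the floor. Among numbers 1 to 3 the dimmer Flt4 probes differed by -0.05 and -0.01, and the dimmer Nrp2 probes by -0.11, 0.29, -0.19 and 0.0033. The dimmer Nrp1 probes differed by 0.50 and 0.60.

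To compare mice of like damage, the group difference was taken from the fit that holds the damage index. Vegfc was then 0.20 higher in ANTI-210 (SE 0.05, limma unadjusted p = 6.54e-04, adjusted p = 0.519) and Nrp1 was 0.15 higher (SE 0.05, unadjusted p = 0.0114, adjusted p = 0.679), with 0.13 for the second Nrp1 probe. So 2 of 10 members passed the unadjusted threshold, against 6.82% of all named genes, and none passed after adjustment. The standard error of the Vegfa difference shrank from 0.30 to 0.09 once damage was in the fit, and the difference was 0.02 (95% interval -0.17 to 0.21). That of Flt1 was 0.06 (-0.17 to 0.30) and that of Vegfb -0.05 (-0.18 to 0.09). The index was itself measured after the injection, on the same arrays, so these are differences among muscles of like index and not an effect with damage removed. For Vegfc the value stayed between 0.13 and 0.22 under the 13 alternative settings and between 0.18 and 0.23 on leaving out each mouse in turn, and it passed the unadjusted threshold in all of these, whereas for Nrp1 it fell to 0.08 and did not pass within numbers 4 to 11 or with the macrophage genes as the index.

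**Figure D3:**
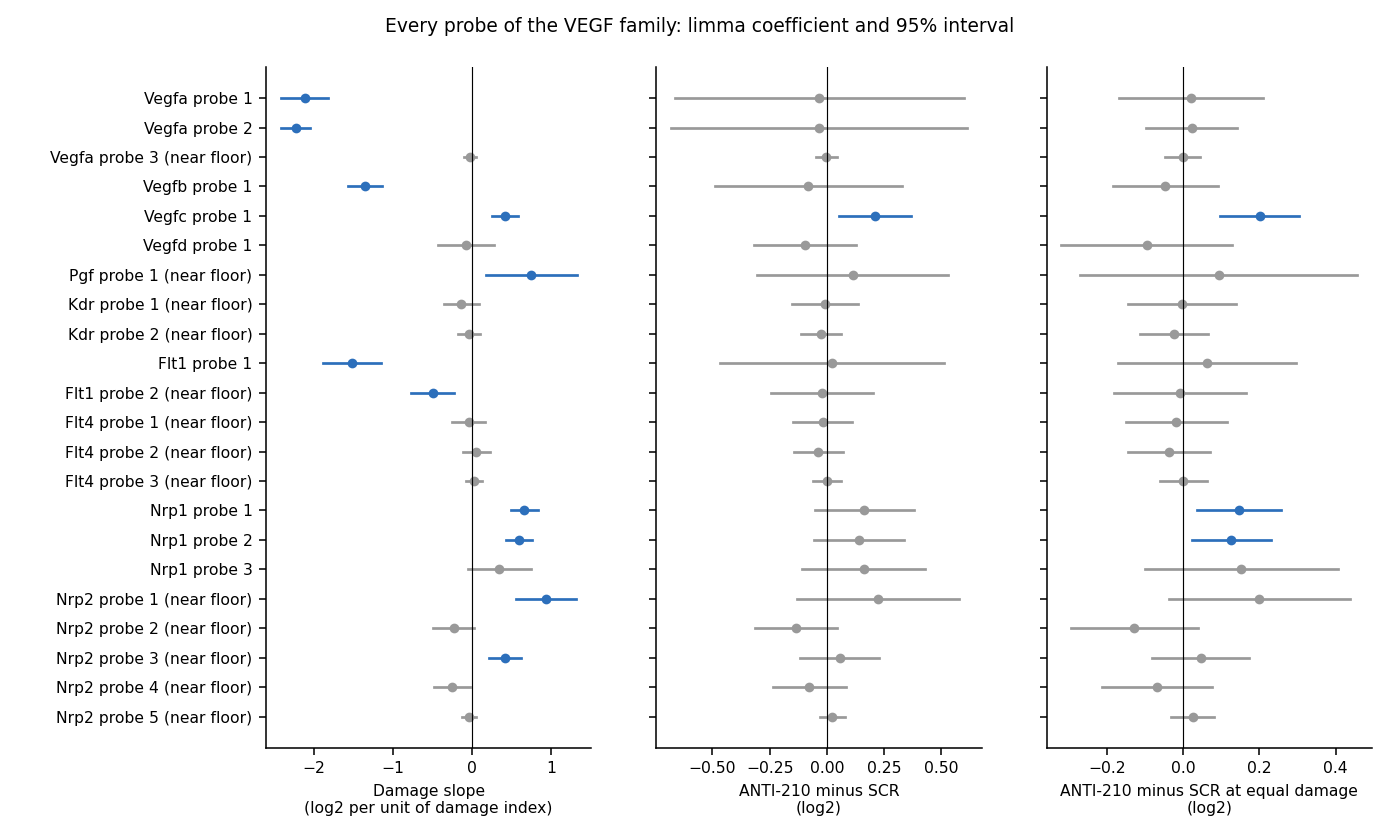
Limma coefficients (points) and 95% intervals (lines) of all 22 probes, numbered by brightness within a gene: the damage slope per unit of index on the left, the difference between ANTI-210 and SCR in the middle, and the same at equal damage on the right, each on its own log2 scale. Blue marks probes past the threshold of that comparison, which is an adjusted p on the left and an unadjusted p in the other 2 panels; the intervals of Vegfa, Vegfb and Flt1 narrow from the middle to the right panel.

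For 9 of the 10 brightest probes the index took a larger share of the variance than the group, the exception being Vegfd, with 3.73% for the group and 1.15% for the index. In Vegfa the group took 0.0571% of the variance and the index 91.3%, in Vegfb 0.787% and 89.0%, and in Flt1 0.0470% and 77.6%. In Nrp1 the shares were 10.3% and 70.3%, and in Nrp2 7.40% and 53.7%. Vegfc was the member with the largest share for the group, 27.0%, against 45.7% for the index. In Pgf the group took 1.43% and the index 26.0%, in Kdr 0.0521% and 7.64%, and in Flt4 0.445% and 0.997%.

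Whether a gene followed damage differently under the 2 oligonucleotides was tested with an interaction term. The unadjusted threshold was passed by 3 of 10 members, against 5.60% of all named genes, and no gene on the array passed after adjustment. The Vegfa slope was -2.66 in ANTI-210 and -1.82 in SCR, a difference of -0.84 (SE 0.24, limma unadjusted p = 0.00257, adjusted p = 0.896). The second Vegfa probe, with slopes of -2.34 and -2.18, gave a difference of -0.17 (unadjusted p = 0.39), so the result did not carry over between the probes of the gene. Vegfd had slopes of 0.39 in ANTI-210 and -0.34 in SCR, a difference of 0.74 (SE 0.32, unadjusted p = 0.0344, adjusted p = 0.909). Nrp2 had slopes of 0.39 and 1.24, a difference of -0.85 (SE 0.33, unadjusted p = 0.019, adjusted p = 0.896), and its other 4 probes gave -0.07 to 0.12. The Pgf slopes were 1.41 and 0.38, a difference of 1.03 (SE 0.54, unadjusted p = 0.0722, adjusted p = 0.922), which did not pass. The calls depended on the setting. With the other 3 damage indices the Vegfa difference was -0.46 to -0.19 and did not pass. Each coefficient is per unit of its own index, and only the first principal component was scaled to the SD of the damage index. In SCR the SD was 0.85 for the macrophage mean and 0.78 for the regenerating fibre mean, against 0.38 for the damage index. The sizes with those 2 lists are thus not comparable with -0.84 or 1.03. The Pgf difference passed with the first principal component (1.27, limma unadjusted p = 0.01), the macrophage genes (0.54, unadjusted p = 0.0084) and the regenerating fibre genes (0.53, unadjusted p = 0.0268). It also passed with array weights (2.25, unadjusted p = 3.25e-04) and without ANTI-210 replicate 11 (2.84, unadjusted p = 1.77e-04) or replicate 1 (1.12, unadjusted p = 0.0419). Under 1 of the 13 alternative settings the differences of Vegfd and Nrp2 turned in sign, and under 3 others each lost its call. Vegfd lost it with cyclic loess, the set of numbers as a term, and numbers 4 to 11 alone. Its limma unadjusted p was 0.0512, 0.0992 and 0.128. Nrp2 lost it with array weights, the mean of all probes, and numbers 4 to 11 alone. Its limma unadjusted p was 0.0989, 0.19 and 0.0884. Without ANTI-210 replicate 11 neither Vegfa (-0.73, unadjusted p = 0.0653) nor Nrp2 (-0.95, unadjusted p = 0.0776) passed, Nrp2 also did not without SCR replicate 6 (-0.64), and Vegfd did not without any 1 of ANTI-210 replicates 3, 5, 6 and 7 (0.61 to 0.69).

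The members moved together mainly along the damage axis. Of the 45 pairs, 4 had a correlation beyond 0.8 in size over 22 mice: Vegfa with Flt1 (r = 0.927, rho = 0.849), Vegfa with Vegfb (r = 0.926, rho = 0.742), Vegfb with Flt1 (r = 0.875, rho = 0.785) and Vegfb with Nrp1 (r = -0.859, rho = -0.797), each with a permutation p of 1e-05 for r. After the group and the index had been taken out no pair was beyond 0.8. Vegfa and Flt1 still correlated at r = 0.610 (rho = 0.610, permutation p = 0.00277 and 0.00326), whereas Vegfa and Vegfb were at 0.258 (permutation p = 0.244). The largest residual correlation was between Vegfd and Nrp2, at r = -0.719 (rho = -0.715, permutation p = 1.4e-04 and 2.3e-04). It was -0.611 without the 2 mice whose Vegfd residual lay farthest from the median of those residuals, and -0.755 among numbers 4 to 11. For Vegfb and Pgf the residual r of -0.595 over all mice was 0.0344 among numbers 4 to 11.

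**Figure D4:**
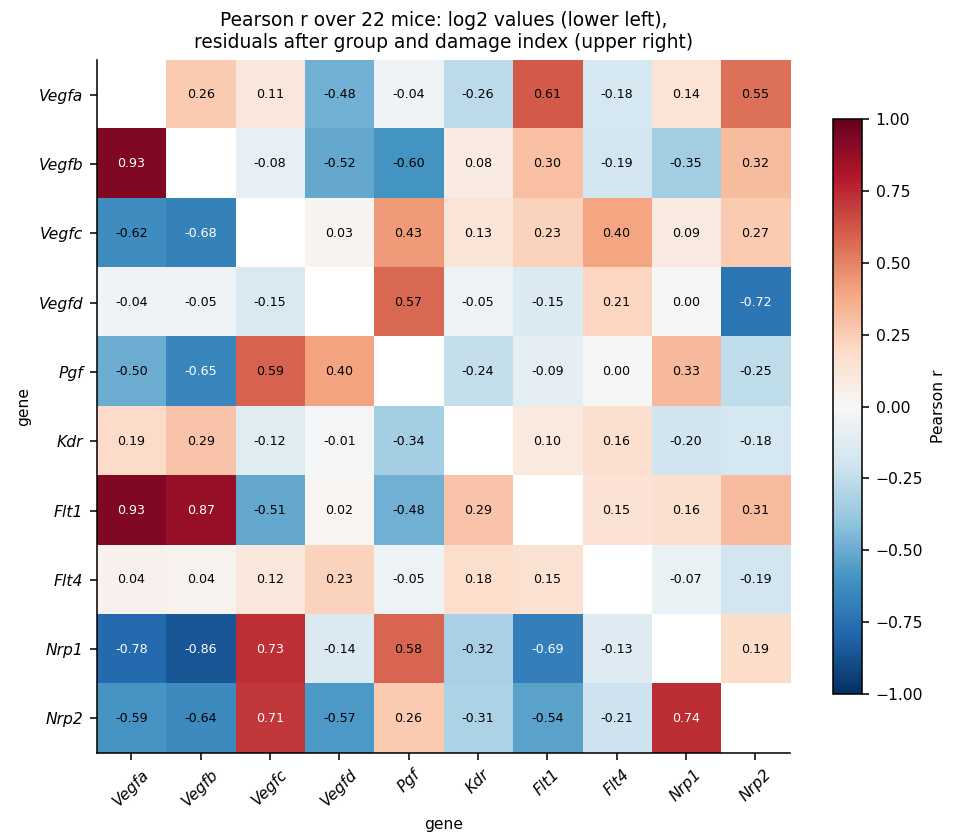
Pearson correlation between the brightest probes of each pair of genes over 22 mice, from -1 (blue) to 1 (red). The lower left triangle gives the log2 values and the upper right the residuals after group and damage index; the block of Vegfa, Vegfb and Flt1 against Nrp1 in the lower left fades in the upper right, where Vegfd with Nrp2 is the darkest cell.

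The genes most like each member over the 22 mice were sought among all named genes, for the 6 members above the floor. Vegfa was most like Perm1 (r = 0.975), a regulator of mitochondrial genes in muscle, Mdh1 (0.973), the cytosolic malate dehydrogenase, and Pptc7 (0.972), a mitochondrial phosphatase. Vegfb was most like Mfn1 (0.985), which fuses mitochondria, Abcb4 (0.984) and Kcnn1 (0.984). Flt1 was most like Aqp1 (0.956), a water channel of capillary endothelium, Ccnk (0.942) and Mapt (0.937). Nrp1 was most like Rgl1 (0.949), Plxnc1 (0.945), a semaphorin receptor, and Cgas (0.940), a sensor of DNA. Vegfc was most like Cmtm6 (0.897) and Vegfd like Tmem87b (0.822). With group and index taken out the nearest were Hsp90aa1 for Vegfa (0.843), G0s2 for Vegfb (0.907), Gsap for Vegfc (0.721), Hbp1 for Vegfd (0.870), Stard4 for Flt1 (0.808) with the endothelial phosphatase Ptprb next (0.801), and Il18r1 for Nrp1 (0.846). These are the highest correlations found in a search of all 18524 named genes and are given as a description.

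The genes around the pathway were counted from lists, and each count is to be read against the 24.0% of all named genes that rose and the 20.1% that fell with damage. Among 14 regulators of Vegfa, 5 rose and 6 fell with damage, with a median slope of -0.32 against -0.01 over all genes. Those that fell included the oxygen sensor Egln1 (-2.27, SE 0.17, limma adjusted p = 3.71e-10), the orphan receptor Esrra (-1.45, SE 0.13, adjusted p = 1.11e-08), which acts with Ppargc1a on muscle Vegfa, Egln2 (-1.12) and Hif1an (-1.01). Among 19 targets of hypoxia-inducible factors 4 rose and 5 fell, shares near those of all genes, with a median of -0.11. Pfkfb4 (-1.56), Pgk1 (-0.94) and Ldha (-0.34), all of glycolysis, fell, and P4ha2 (0.62), of collagen synthesis, rose.

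Downstream of the receptors, 9 of 30 signalling genes rose and 8 fell with damage, again near the shares of all genes (24.0% and 20.1%), with a median of -0.01. Src (1.53) rose, and Ppp3cb (-0.85), Prkca (-0.99) and Mapkapk2 (-0.70) fell. Of 13 genes known to respond to VEGF in endothelial cells 8 rose and 2 fell, with a median of 0.99: Angpt2 (0.99), Cxcr4 (1.60), Plvap (0.99) and Egr3 (1.98) rose in muscles where Vegfa itself was lower. Several of these are also made by immune or muscle cells. Of 23 modulators of VEGF binding and receptor traffic 11 rose and 3 fell, led by Dab2 (1.70), Thbs2 (3.14), an inhibitor of vessel growth, and Sdc1 (2.12), while Epn2 (-0.90) fell. Of 17 other angiogenic factors 9 rose and 3 fell, with Igf1 (1.89) up and Egf (-2.71), Fgf1 (-3.00) and Angpt1 (-1.97) down.

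Endothelial markers bear on how the receptors are read. Of 21 endothelial genes 1 rose and 8 fell with damage, with a median slope of -0.17. The falls were smaller than that of Flt1 (-1.52): Ptprb -0.91, Cd34 -0.79, Tek -0.54 and Nos3 -0.50. Of 19 macrophage genes 18 rose and 1 fell, with a median of 2.35, and Nrp1 and Nrp2, which macrophages can also express, rose by 0.66 and 0.93. Of 6 lymphatic endothelial genes only Pdpn (1.35), which fibroblasts also make, was called, while Prox1 (0.33, adjusted p = 0.0963) and Lyve1 (-0.49, adjusted p = 0.231) were not. How far the changing mix of cells sets the slopes of the VEGF genes was not tested.

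In the oligonucleotide comparison 5 of 21 endothelial genes were higher in ANTI-210 at the unadjusted threshold and none was lower, with a median of 0.14 against -0.0036 over all genes. Over all named genes 1.45% were higher in ANTI-210 at that threshold. Other cell type lists also had medians above 0, of 0.32 for 19 macrophage genes, 0.26 for 8 fibroblast matrix genes, 0.20 for 6 lymphatic endothelial genes, 0.13 for 12 regenerating fibre genes and 0.10 for 12 genes of smooth muscle and pericytes, of which 1 gene, lymphatic, passed. Those of 8 neutrophil and 33 mature fibre genes were 0.02 and -0.02. The median of the 13 VEGF response genes was 0.17. The 5 endothelial genes included Emcn (0.21, SE 0.07), Cdh5 (0.25, SE 0.09), Robo4 (0.20, SE 0.08) and Esam (0.17, SE 0.08), and none passed after adjustment. The mean of the endothelial list ran from -0.25 to 0.18 in SCR and from -0.19 to 0.25 in ANTI-210. The lowest SCR mouse and the highest ANTI-210 mouse were both replicate 1. Replicates 2 and 3 stood at -0.20 and 0.0024 in SCR and at -0.0028 and 0.0038 in ANTI-210. The part of the set of replicate numbers in the endothelial count was not tested. Of the lymphatic genes Ccl21a (0.22, unadjusted p = 0.0498) passed. Among the regulators the transcription factor Ets1 was 0.35 higher (SE 0.09, unadjusted p = 6.88e-04, adjusted p = 1), among the modulators Numb 0.10, and among the other angiogenic factors Cxcl12 0.35. None of the 30 signalling genes, 13 response genes and 19 hypoxia targets passed the unadjusted threshold. When the endothelial mean was added to the fit with group and index, 1 member, Nrp1, was related to it at the unadjusted threshold (slope 0.52, SE 0.21, p = 0.0233), against 7.42% of all named genes, and none after adjustment (0.0486% of all named genes). For Vegfc that slope was 0.41 (95% interval -0.03 to 0.85) and for Flt1 0.90 (-0.09 to 1.89).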

How the data were processed

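Gene expression was measured on 22 arrays, 1 per mouse, and groups and replicate numbers came from the sample labels. The values deposited by the authors are log2 intensities, 38563 probes per array, summarised from beads in GenomeStudio, quantile normalized and filtered with beadarray. No software version or filter threshold was found for these steps (not given in the sources used here). That the logarithm is to base 2 was inferred from the range of 4.35 to 15.4. The dose, the day of harvest and the way the artery was treated come from the study's methods. Quantile normalization forces all arrays to 1 distribution, so differences are relative to the array as a whole.

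Gene symbols came from the platform annotation. Each gene was read from its brightest probe, ranked by the mean of the 22 arrays, and all probes of the VEGF genes are given. Differences, slopes and interactions were fitted over all probes with limma 3.58.1 (lmFit and eBayes) in R 4.3.3, two-sided, with Benjamini-Hochberg adjustment over all probes. Permutation tests used scipy 1.17.1 and Python 3.11.15. No p was adjusted over the VEGF genes alone. The fits were tested on simulated data. Of each list the genes named are up to 4 with the smallest p in each comparison, and of the genes most like a member the top 3 were found, for members with a mean of at least 6. The members, lists and tests were chosen with earlier results of these data known. Alternatives were other normalizations, a trended robust variance, array weights, a filter on dim probes, the mean of all probes, the replicate number as a block, the set of numbers, other damage indices and leaving out each mouse. The number of arrays limits the precision. Promoter and microRNA sequences are RefSeq's, and the sequences of the oligonucleotides and probes are not printed here.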

Additional observations from a re-analysis of the deposited data

Results flagged for a closer look

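The damage slope differed between ANTI-210 and SCR by the interaction test at an unadjusted p under 0.05 for 3 genes, and for 0 genes of the array after adjustment (limma, with 1037 of 18524 genes past the unadjusted threshold). The difference was -0.84 for Vegfa, whose second probe gave -0.17. It was 0.74 for Vegfd and -0.85 for Nrp2, whose other 4 probes gave -0.07 to 0.12. The directions of Vegfd and Nrp2 turned under 1 of 13 alternative settings, and each call was lost under 3 others, including numbers 4 to 11 alone. The Vegfa call was lost under 4 of the 13.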

How the results depend on the processing

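Of the 7 damage slopes called, those of Vegfa, Vegfb, Vegfc, Flt1, Nrp1 and Nrp2 held under each alternative fitted to at least 16 mice and on leaving out each mouse, and Pgf was lost as described. Kdr gave no value under the filter on dim probes. Within numbers 1 to 3 (6 mice, added after seeing the data) the damage count was 0. The oligonucleotide count of 1 became 3 with array weights, 0 within numbers 4 to 11 and 7 within numbers 1 to 3, and ran from 1 to 3 on leaving out each mouse (3 without SCR replicate 6, 2 without SCR replicate 7). The count at equal damage, 2, became 1 within numbers 4 to 11 1 with the macrophage index and 3 under the block described next, and was 2 to 3 on leaving out each mouse, since Nrp2 then also passed under the block (0.20), without SCR replicate 6 (0.27) and without ANTI-210 replicate 11 (0.24). The groups shared replicate numbers, but the deviations of same-numbered mice correlated at -0.66 to 0.64, with 4 of 11 pairs over 0.1 and 2 of 22 mice closest to their own number, so the mice shared only a number. With the number as a block, 7 damage calls and 1 oligonucleotide call were found, and the interaction count of 3 became 1, with Vegfa at -0.40 (limma unadjusted p = 0.148) and Vegfd past the threshold in the opposite direction (unadjusted p = 0.0403). Signs turned in 35 of 566 values of single genes, in 3 of them with a value past its threshold (the Flt4 oligonucleotide difference within numbers 1 to 3, and Vegfd and Nrp2 in the interaction under the block). The oligonucleotide differences that turned were, within numbers 4 to 11, 0.22 for Vegfa, 0.13 for Vegfb, -0.15 for Pgf and 0.0038 for Kdr, within numbers 1 to 3, 0.057 for Vegfd, -0.08 for Flt1 and 0.19 for Flt4, and with array weights, -0.11 for Flt1 and 0.0086 for Flt4. Damage slopes that turned were 0.18 for Vegfd within numbers 1 to 3 and 0.011 for Flt4 with the mean of all probes, and the Flt4 correlation with the index was 0.2998 without the 2 farthest mice and 0.0848 without the 5 highest. At equal damage the turned differences were -0.035 for Vegfa and 0.012 for Kdr with array weights, and 0.0045 for Vegfb, -0.091 for Pgf and -0.10 for Flt1 within numbers 4 to 11. For Vegfb and Kdr they were 0.027 and 0.0055 with the first principal component as the index, 0.079 and 0.019 with the macrophage genes, and 0.0081 and 0.0058 with the regenerating fibre genes. In the interaction they were, under the block, 0.10 for Vegfb, -0.86 for Vegfd, -0.082 for Pgf, -0.30 for Kdr, -0.024 for Nrp1 and 0.36 for Nrp2. They were 0.16 for Vegfc and -0.12 for Kdr with array weights, 0.054 for Flt4 and -0.13 for Nrp1 with the mean of all probes, and -0.0039 for Nrp1 with the set of numbers as a term. On leaving out each mouse, 61 of 880 values of single genes turned, none with a value past its threshold. The oligonucleotide difference then ran from -0.18 to 0.15 for Vegfa, -0.17 to 0.017 for Vegfb, -0.016 to 0.17 for Pgf, -0.032 to 0.033 for Kdr, -0.077 to 0.16 for Flt1 and -0.043 to 0.0083 for Flt4. The damage slope ran from -0.15 to 0.0035 for Vegfd and -0.11 to 0.065 for Flt4. At equal damage the ranges were -0.014 to 0.073 for Vegfa, -0.011 to 0.16 for Pgf, -0.025 to 0.034 for Kdr and -0.042 to 0.011 for Flt4. For the interaction they were -0.32 to 0.19 for Vegfc, -0.23 to 0.17 for Kdr, -0.45 to 0.029 for Flt4 and -0.10 to 0.46 for Nrp1. The group difference of the damage index ran from -0.044 to 0.11. With the macrophage index the Kdr correlation was -0.425 (permutation p = 0.0472). The cause of these changes was not tested. Signal over background limits the dim probes of Pgf, Kdr, Flt4 and Nrp2.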
